A study of Mus musculus with 11 samples.

Results

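The genes described here are the dystrobrevins *Dtna* and *Dtnb*, the beta-syntrophins *Sntb1* and *Sntb2*, and neuronal nitric oxide synthase *Nos1*. Their products are partners of dystrophin at the inner face of the muscle membrane, or close relatives of such partners. The genes were picked by name: a probe set was a member if its gene symbol equalled 1 of these 5. On the array, 5 of 28350 probe sets and 5 of 21759 gene symbols met this rule, a single probe set for each gene, and all 5 reached the minimum signal and were tested.

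RNA was measured in the tibialis anterior (TA) muscle of 11 male mice of 14 weeks of age, with a separate Affymetrix Mouse Gene ST array for each mouse. The groups were 3 wild-type C57 mice, 4 *mdx* mice without treatment and 4 that had received Pip6e-PMO, here called treated mice. The *mdx* mouse is a model of Duchenne muscular dystrophy on the C57/B10 background, shared by all 11 mice, that carries a premature stop in *Dmd*, the dystrophin gene, in all of its cells. The study asked how the muscle transcriptome changes when dystrophin is missing and when exon skipping brings it back. Treated mice were given a single dose of 12.5 mg/kg by tail vein when they were 12 weeks old. Pip6e is a cell-penetrating peptide that carries a morpholino oligonucleotide (PMO) into the fibres. The PMO has 25 bases and masks a splice site so that the exon with the stop is left out; it is shown here, 5′ to 3′, because it defines the treated group.

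PMO: ggccaaacctcggcttacctgaaat

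Dystrophin links the actin skeleton of the fibre to a complex of membrane proteins and, through them, to the matrix outside. Alpha-dystrobrevin, encoded by *Dtna*, is a smaller relative of dystrophin that binds dystrophin through a coiled coil, and both carry binding sites for syntrophins. Syntrophins are adaptor proteins that hold channels, kinases and neuronal nitric oxide synthase at the membrane. When dystrophin is absent these proteins are known to be reduced or lost at the membrane, which is a change of protein, whereas the arrays measured mRNA.

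The RNA came from cryosections of whole muscle, so fibres, vessels, nerve, connective tissue and infiltrating cells all contributed, and for every gene fewer cells of a type and less RNA per cell cannot be told apart. The summed signal of 8 markers of mature fibres ranged from 49505 to 51229 over the C57 mice, from 50452 to 51076 over the *mdx* mice and from 49087 to 53003 over the treated mice, so the RNA was that of muscle in each group. The median intensity of the arrays was 27.5 to 28.6, and 48.2 to 49.2% of the probe sets reached the minimum signal of 30. Treated mouse 2 stood apart: its values deviated from the mean of the other treated mice by 0.381 on the log2 scale (median absolute deviation, scaled to a standard deviation), against 0.153 to 0.257 for the other 10 mice and their groups. The study reports the lowest efficacy in its treated sample T2, taken here by its number to be this mouse. That was measured as exon skipping by RT-qPCR and as dystrophin by mass spectrometry. The study also found the mRNA of T2 clustered closer to *mdx* samples than that of the other treated mice. A link to the deviation was not tested. Between treated and *mdx* mice, limma called 1615 of 14494 probe sets with all mice, 4103 without treated mouse 2, and 269 to 1453 without any other single mouse. For the genes described here and the gene lists, calls between treated and *mdx* mice that rest on treated mouse 2 are therefore given with and without it. Cell type markers are given with all mice only. Signals are on the log2 scale, where 1 is a doubling, and genes were called where the p from limma, adjusted by Benjamini-Hochberg across the 14494 probe sets tested, was under 0.05.

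Transcripts of the beta-syntrophins and of alpha-dystrobrevin were most abundant in the treated mice, and *Sntb2* rose at both steps, from C57 to *mdx* and from *mdx* to treated muscle. *Dtnb* and *Nos1* passed the test in none of the comparisons. In *mdx* against C57 muscle, 1 of the 5 genes was called, *Sntb2*, and it was higher; over all probe sets tested, 12.0% were called and 7.06% were called higher. In treated against *mdx* muscle, *Sntb2* was again the 1 gene called, where 11.1% of all probe sets were called and 7.26% were called higher. In treated against C57 muscle, *Dtna*, *Sntb1* and *Sntb2* were called, all 3 higher, where 24.6% of all probe sets were called and 15.6% were called higher.

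The same genes were read by whether the mice of a pair of groups overlapped. In *mdx* against C57 muscle, all *mdx* mice lay above all C57 mice for 2 of the 5 genes, *Sntb1* and *Sntb2*, as they did for 13.1% of all probe sets. In treated against *mdx* muscle, the treated mice lay above for the same 2 genes, and for 9.29% of all probe sets. In treated against C57 muscle, they lay above for 3 genes, *Dtna* being the third, and for 17.9% of all probe sets. The median difference of the 5 genes was 0.29 in *mdx* against C57, 0.39 in treated against *mdx* and 0.68 in treated against C57 mice, beside -0.01, 0.02 and 0.00 over all probe sets tested. At the threshold of the study's text, an unadjusted p under 0.01, here from an unpaired two-sided test of the log2 values, with a change of at least 1.5-fold, 0 of the 5 genes passed in *mdx* against C57 mice and 0 in treated against *mdx* mice, and *Sntb2* passed in treated against C57 mice; over all probe sets the shares were 5.88%, 2.33% and 7.56%. At an unadjusted p under 0.05 in limma, 2, 4 and 3 of the 5 genes passed, beside 24.9%, 31.5% and 39.7% of all probe sets.

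**Figure D1:**
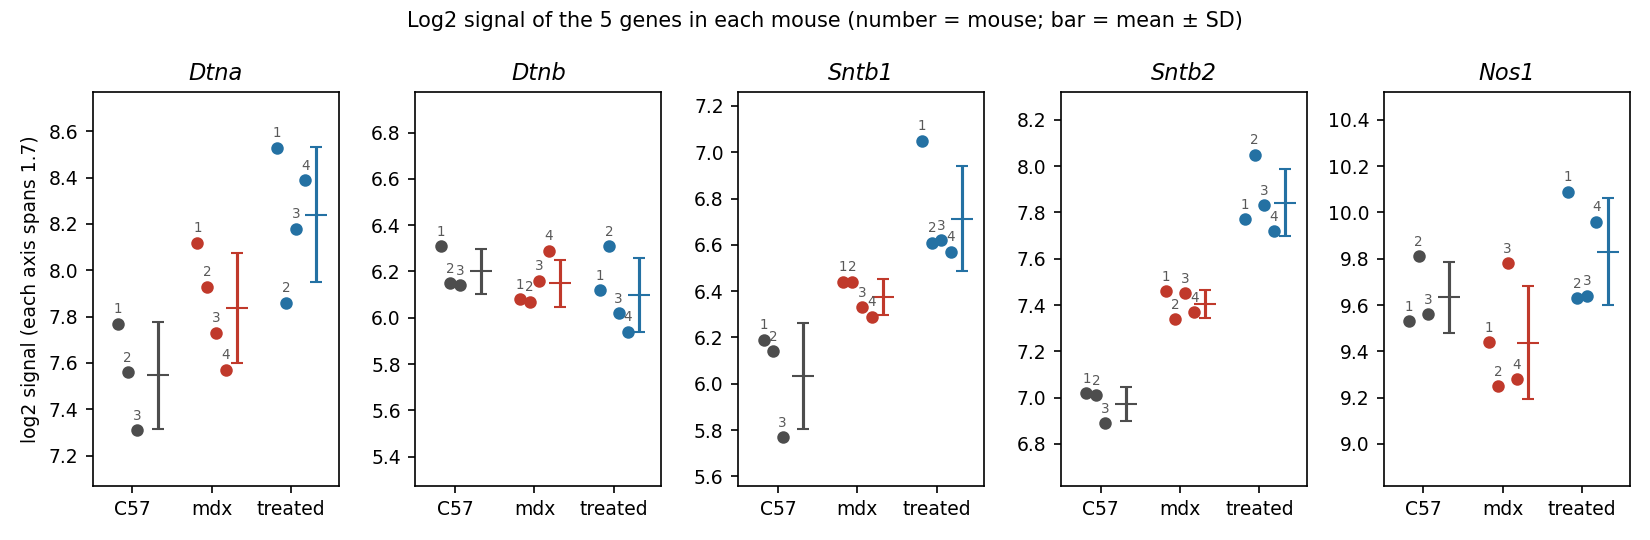
Log2 signal (y axis, each spanning 1.7) of the 5 genes in the 3 C57, 4 *mdx* and 4 treated mice; each point is a mouse with its number, and the bar beside it is the group's mean ± SD. The groups of *Sntb1* and *Sntb2* do not overlap and step upwards from C57 to treated mice, *Dtna* overlaps between neighbouring groups, and *Dtnb* stays between 5.94 and 6.31.

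*Dtna*, alpha-dystrobrevin, was read by 65 probes (probe set 10454254, chromosome 18, plus strand, 23573916 to 23818215 in the deposited table, which names no genome build); the level is a summary over all of these probes and does not separate splice forms. The log2 signal was 7.77, 7.56 and 7.31 in the C57 mice, 8.12, 7.93, 7.73 and 7.57 in the *mdx* mice, and 8.53, 7.86, 8.18 and 8.39 in the treated mice. Treated mouse 2 was the lowest of its group and lay within the *mdx* range, the *mdx* and C57 mice overlapped, and every treated mouse lay above every C57 mouse, by 0.09 at the nearest. The group means were 7.55 ± 0.23 (SD, n = 3), 7.84 ± 0.24 (SD, n = 4) and 8.24 ± 0.29 (SD, n = 4).

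The signal of *Dtna* rose in treated against C57 muscle by 0.69 (standard error 0.18), or 1.62-fold, with a 95% confidence interval of 1.24 to 2.11-fold and an adjusted p of 0.0158 in limma. This call was lost without C57 mouse 3, with an adjusted p of 0.0758. Between treated and *mdx* mice the difference was 0.40 (standard error 0.16), with an interval of 0.05 to 0.76 and an adjusted p of 0.118 in limma, so the gene was not called. Without treated mouse 2 that difference was 0.53 and it was called (adjusted p = 0.0244 in limma). *Dtna* thus increased in the order C57, *mdx*, treated, and neither pair of neighbours in this order passed the test with all mice.

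*Dtnb*, beta-dystrobrevin, is the form better known from brain, kidney and liver than from muscle fibres. Its 43 probes (probe set 10394186, chromosome 12, plus strand, 3572523 to 3781505) gave a log2 signal of 6.31, 6.15 and 6.14 in C57, 6.08, 6.07, 6.16 and 6.29 in *mdx*, and 6.12, 6.31, 6.02 and 5.94 in treated mice. All 3 groups overlapped, and treated mouse 2 was as high as the highest C57 mouse. The means ran down from 6.20 in C57 through 6.15 in *mdx* to 6.10 in treated mice, and no neighbours in that order differed beyond their spread. The difference between treated and C57 mice was -0.10, with a 95% confidence interval of -0.34 to 0.13 and an adjusted p of 0.50 in limma. An increase of the size called for *Dtna* lies outside that interval.

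The signals of both dystrobrevins were also compared within each mouse. Because different probes are not on one scale, the log2 difference between *Dtna* and *Dtnb* was set to 0 at the C57 mean. On this scale the C57 mice ranged from -0.18 to 0.11, the *mdx* mice from -0.07 to 0.69 and the treated mice from 0.20 to 1.10, with means of 0.34 in *mdx* and 0.80 in treated mice. Every treated mouse lay above every C57 mouse, and the lowest treated value was that of mouse 2; this difference was not tested.

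*Sntb1* encodes beta-1-syntrophin, an adaptor that is found along the membrane of skeletal fibres. Its 31 probes (probe set 10428698, chromosome 15, minus strand, 55470709 to 55738504) gave a log2 signal of 6.19, 6.14 and 5.77 in the C57 mice, 6.44, 6.44, 6.33 and 6.29 in the *mdx* mice, and 7.05, 6.61, 6.62 and 6.57 in the treated mice. No groups overlapped, although the gaps between neighbours were small, 0.10 from C57 to *mdx* and 0.13 from *mdx* to treated mice. C57 mouse 3 was the lowest of all, and treated mouse 1 lay well above the rest of its group.

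*Sntb1* rose by 0.68 (standard error 0.14) in treated against C57 muscle, which is 1.60-fold with an interval of 1.30 to 1.97-fold, and an adjusted p of 0.00519 in limma. That call was kept without each mouse in turn, with an adjusted p of at most 0.0269. The differences between neighbours, 0.34 in *mdx* against C57 (adjusted p = 0.140 in limma) and 0.34 in treated against *mdx* mice (adjusted p = 0.0970), did not pass. Without treated mouse 1 the difference from *mdx* was 0.23 (adjusted p = 0.239 in limma), and that from C57 was 0.57 (adjusted p = 0.00871). Without treated mouse 2 the difference from *mdx* was 0.37 and was not called (adjusted p = 0.061 in limma).

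*Sntb2* encodes beta-2-syntrophin, which in muscle is concentrated at the neuromuscular junction. Its 32 probes (probe set 10575120, chromosome 8, plus strand, 109459650 to 109538092) gave a log2 signal of 7.02, 7.01 and 6.89 in C57, 7.46, 7.34, 7.45 and 7.37 in *mdx*, and 7.77, 8.05, 7.83 and 7.72 in treated mice. The groups were tight and separate: the nearest mice of C57 and *mdx* were 0.32 apart and those of *mdx* and treated mice 0.26 apart. Treated mouse 2, the lowest of its group for *Dtna*, was the highest for *Sntb2*.

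*Sntb2* rose in *mdx* over C57 muscle by 0.43 (standard error 0.10), or 1.35-fold (interval 1.16 to 1.56-fold, adjusted p = 0.0129 in limma). It rose further in treated mice, by 0.44 over *mdx* (standard error 0.09), or 1.35-fold (interval 1.18 to 1.55-fold, adjusted p = 0.0177 in limma). Differences at least this large were found in 9.36% of all probe sets at the first step and 9.24% at the second. Together the steps came to 0.87 over C57 (standard error 0.10), a 1.83-fold rise (interval 1.58 to 2.12-fold) with an adjusted p of 1.96e-04 in limma. Both steps use the same *mdx* mice and are not independent of each other.

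The call of the first step was lost without C57 mouse 3 (adjusted p = 0.0586 in limma), and that of the second without *mdx* mouse 4 (0.0530) or treated mouse 3 (0.0503). Without treated mouse 2, the highest of its group, the difference of the second step was 0.37 and was still called (adjusted p = 0.0089 in limma). The treated against C57 difference passed in limma without each mouse in turn, with an adjusted p of at most 0.00179. *Sntb2* was thus the 1 gene of the 5 called at both steps of the order C57, *mdx*, treated, and the treated mice lay further from C57 than the *mdx* mice did.

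**Figure D2:**
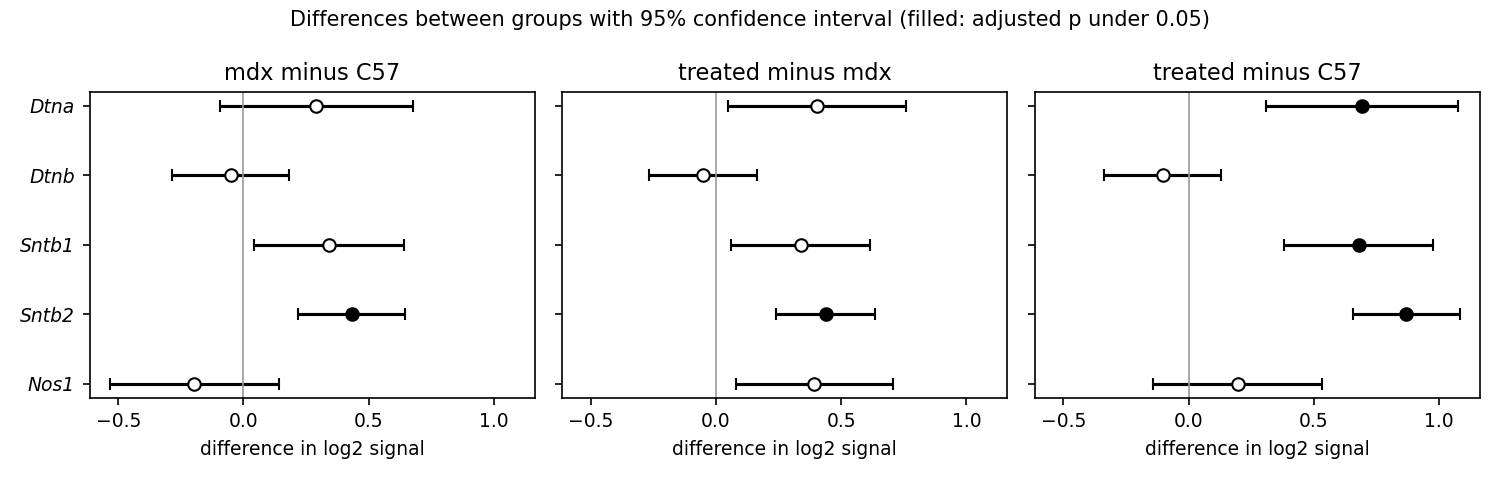
Difference in log2 signal (x axis) of each gene for *mdx* minus C57, for treated minus *mdx* and for treated minus C57 mice, with its 95% confidence interval from limma; filled points have an adjusted p under 0.05. *Sntb2* is filled in all 3 panels, *Sntb1* and *Dtna* in treated minus C57 alone, and *Dtnb* and *Nos1* in none.

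Both beta-syntrophins were also compared within each mouse on the scale used for the dystrobrevins. *Sntb2* minus *Sntb1*, set to 0 at the C57 mean, ranged from -0.11 to 0.18 over the C57, -0.04 to 0.18 over the *mdx* and -0.22 to 0.50 over the treated mice. All groups overlapped, the treated mice being the most spread, with mouse 1 the lowest and mouse 2 the highest; the means were 0.09 in *mdx* and 0.19 in treated mice, and this difference was not tested.

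**Figure D3:**
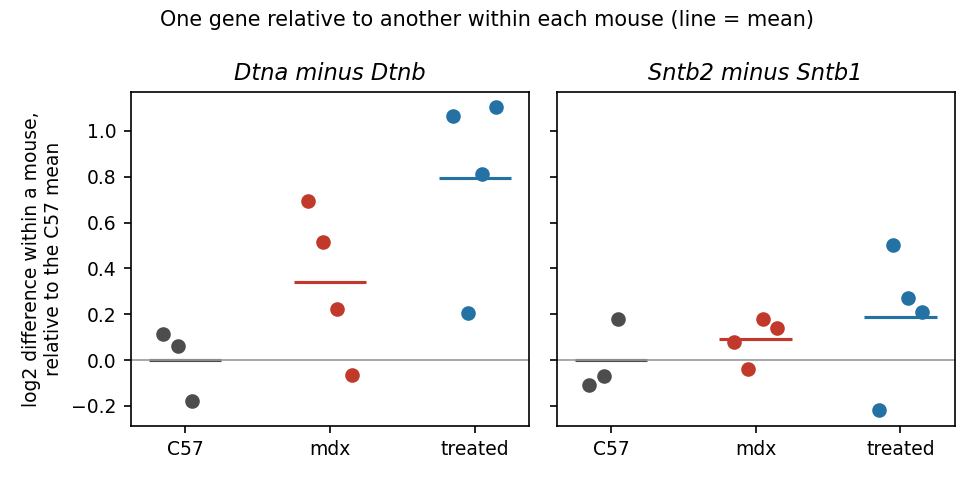
Log2 difference between a pair of genes within each mouse (y axis), relative to the C57 mean, for *Dtna* minus *Dtnb* and *Sntb2* minus *Sntb1*; points are mice and lines are group means. For *Dtna* minus *Dtnb* the treated mice, at 0.20 to 1.10, lie above all C57 mice, at -0.18 to 0.11; for *Sntb2* minus *Sntb1* all groups overlap.

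*Nos1* encodes neuronal nitric oxide synthase, which in muscle makes the nitric oxide that widens vessels during contraction. Its 31 probes (probe set 10524909, chromosome 5, plus strand, 118292195 to 118404370) gave a log2 signal of 9.53, 9.81 and 9.56 in C57, 9.44, 9.25, 9.78 and 9.28 in *mdx*, and 10.09, 9.63, 9.64 and 9.96 in treated mice. In *mdx*, 3 of the 4 mice lay below every C57 mouse and mouse 3 lay among them, while treated mice 1 and 4 lay above all mice of the other groups. The means were 9.63 ± 0.15 (SD, n = 3), 9.44 ± 0.24 (SD, n = 4) and 9.83 ± 0.23 (SD, n = 4), so the order was *mdx*, C57, treated.

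No difference of *Nos1* passed the test. Treated mice were above *mdx* mice by 0.39 (standard error 0.14, interval 0.08 to 0.71), with an adjusted p of 0.0890 in limma. Without treated mouse 2 the difference was 0.46 and was called (adjusted p = 0.0395 in limma). The *mdx* mice differed from C57 by -0.20 (interval -0.53 to 0.14, adjusted p = 0.495) and the treated mice by 0.20 (interval -0.14 to 0.53, adjusted p = 0.363). With 1 mouse left out these differences ran from -0.31 to -0.11 and from 0.11 to 0.29, and with array weights the second was 0.05.

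For each gene, the 3 genes outside the set with the most similar signal over the 11 mice were taken by Pearson's r among the genes tested. These values describe mice in 3 groups on arrays normalized together, and they carry no test. *Dtna* was most like *Ide*, an insulin-degrading protease (r = 0.979), *Mbnl1*, a splicing regulator (0.973), and *Canx*, the chaperone calnexin (0.971). *Sntb1* was most like *Wbscr27* (0.962), *Scube2* (0.960) and *Lrig2* (0.955), and *Sntb2* was most like the sorting nexin *Snx4* (0.982), *2510009E07Rik* (0.980) and *D17H6S56E-5* (0.977). *Nos1* was most like *Epas1*, a hypoxia-inducible transcription factor (0.963), *Arhgef12* (0.952) and *Helz* (0.943). The best matches of *Dtnb* were weaker, with *Phf13* at 0.916, the splicing factor *Sf3b4* at 0.903 and the kinase *Grk6* at 0.878. When single mice were left out, the lowest r of any of these pairs was 0.854, for *Dtnb* and *Grk6*.

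The rest of the dystrophin-glycoprotein complex was read from a list of 14 genes, of which 11 were tested; *Sgcz*, *Sntg1* and *Sntg2* did not reach the minimum signal. In *mdx* against C57 muscle 1 gene was called higher and 0 lower, in treated against *mdx* muscle 1 and 0, and in treated against C57 muscle 5 and 0; over all probe sets 7.06%, 7.26% and 15.6% were called higher. The median differences were 0.06, 0.32 and 0.36. *Lama2*, the laminin chain outside the fibre to which the complex attaches, rose in *mdx* (0.69, adjusted p = 0.0291 in limma) and was 0.99 above C57 in treated mice (adjusted p = 0.00334). *Sspn*, sarcospan, a small membrane protein of the complex, was the gene that rose in treated against *mdx* mice (0.32, adjusted p = 0.0443).

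Against C57, treated mice also had more RNA for *Utrn*, the dystrophin relative utrophin (0.62, adjusted p = 0.0262 in limma), and for the sarcoglycans *Sgcb* (0.65, adjusted p = 0.00741) and *Sgce* (0.53, adjusted p = 0.0390). The mean signal of *Dmd* itself was 5.82 over the C57 mice, 5.28 over the *mdx* mice (SD 0.50, n = 4) and 5.80 over the treated mice, and it was called in no comparison. A signal summed up over the probes of this gene checks neither the stop nor the skipping. Leaving out 1 mouse at a time, the count called higher in treated against *mdx* mice ran from 0 to 4 and that against C57 from 2 to 6. The call of *Sspn* against *mdx* was lost without 9 of the 11 single mice (adjusted p up to 0.118 in limma), that of *Lama2* in *mdx* without C57 mice 2 or 3 or *mdx* mice 1, 2 or 3 (up to 0.141), and that of *Utrn* against C57 without C57 mice 2 or 3 or treated mice 1 or 4 (up to 0.120). The call of *Sgce* was lost without 7 of the single mice (up to 0.143) and that of *Sspn* against C57 without C57 mice 2 or 3 or treated mouse 4 (up to 0.0939). The highest counts were those without treated mouse 2, where *Utrn*, *Sgcb*, *Sgcd* and *Sspn* were called higher and *Cav3* lower against *mdx* mice. Of all 14494 probe sets, 4103 were called against *mdx* without this mouse and 1615 with it.

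Proteins that bind dystrobrevins or syntrophins were read from a list of 18 genes, of which 13 were tested. In *mdx* against C57 muscle 1 was called higher and 3 lower, in treated against *mdx* muscle 1 and 1, and in treated against C57 muscle 2 and 3, with median differences of 0.01, 0.15 and -0.07. Over all probe sets 7.06%, 7.26% and 15.6% were called higher, and 719, 563 and 1299 of 14494 were called lower. With 1 mouse left out, the genes of this list called lower in *mdx* numbered 1 to 4. Those higher in treated against *mdx* mice numbered 0 to 3, and those lower in treated against C57 mice 0 to 3. The highest count in treated against *mdx* mice was that without treated mouse 2 (*Synm*, *Plekha1*, *Abca1*). Leaving this mouse out raised the calls over all 14494 probe sets from 1615 to 4103. The channel genes fell in *mdx*: *Scn4a*, the sodium channel of the muscle action potential, by 0.57 on the log2 scale (adjusted p = 0.00329 in limma), and *Aqp4*, a water channel held by syntrophin, by 0.80 (adjusted p = 0.0284). *Dtnbp1*, dysbindin, a partner of the dystrobrevins, fell by 0.39 (adjusted p = 0.0158). *Abca1*, a cholesterol transporter that binds syntrophins, was the gene of this list that moved as *Sntb2* did: it was called higher in *mdx* than in C57 (0.50, adjusted p = 0.0145), in treated than in *mdx* (0.39, adjusted p = 0.0385) and in treated than in C57 mice (0.89, adjusted p = 4.24e-04).

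*Plekha1*, an adaptor that binds syntrophin PDZ domains, rose in treated against C57 muscle (0.81, adjusted p = 0.00431 in limma). *Krt8*, a keratin, fell in treated against *mdx* muscle by 0.68 on the log2 scale (adjusted p = 0.0242). *Scn4a* and *Dtnbp1* were still lower than C57 in treated mice, by differences of -0.37 (adjusted p = 0.0198) and -0.32 (adjusted p = 0.0255), and so was *Mapk12*, a kinase that binds syntrophin (-0.25, adjusted p = 0.0479). Of these calls, those of *Scn4a* in *mdx*, of *Plekha1* against C57 and of *Abca1* against C57 were kept without each mouse in turn. The call of *Aqp4* was lost without C57 mice 2 or 3 or *mdx* mice 3 or 4 (adjusted p up to 0.125), that of *Dtnbp1* in *mdx* without C57 mouse 2 (0.0862), and that of *Krt8* without *mdx* mouse 4 or treated mice 3 or 4 (up to 0.0734). That of *Abca1* in *mdx* was lost without C57 mice 2 or 3 (up to 0.0592), and in treated against *mdx* mice without 8 of the 11 single mice (up to 0.105). Against C57, *Mapk12* was lost without 10 of them (up to 0.176), *Dtnbp1* without C57 mice 2 or 3 or treated mice 1 or 3 (up to 0.106), and *Scn4a* without C57 mice 2 or 3 or treated mouse 3 (up to 0.0791).

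Downstream of *Nos1*, nitric oxide acts on soluble guanylyl cyclase, which makes cGMP in smooth muscle and related cells. The list for this pathway held 17 genes, of which 15 were tested. In *mdx* against C57 muscle limma called 0 of them, with 3 at an unadjusted p under 0.05; in treated against *mdx* muscle 4 were higher and 0 lower, and in treated against C57 muscle 4 and 0. Counting only the 13 genes that reached the minimum signal in all 3 groups, 2 were higher and 0 lower in each of the latter comparisons, *Gucy1a3* and *Calm2*. Over all probe sets, 12.0% were called in *mdx* against C57 muscle, and 24.9% had an unadjusted p under 0.05 in limma. In treated mice 7.26% of all probe sets were called higher against *mdx* and 15.6% against C57. *Gucy1a3*, a subunit of the cyclase, went from 5.52 ± 0.27 (SD, n = 4) in *mdx* to 6.34 ± 0.31 (SD, n = 4) in treated mice, a difference of 0.82 (adjusted p = 0.0191 in limma), and every treated mouse lay above every *mdx* and every C57 mouse.

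The subunits *Gucy1a2* and *Gucy1b3* reached the minimum signal through the treated mice alone, with mean intensities of 24.97, 22.6 and 41.5 and of 27.3, 26.0 and 52.5 in C57, *mdx* and treated mice. They could therefore be tested only because they were high there, and their calls are no support for a rise of the list. *Calm2*, a calmodulin gene whose product activates the synthase, differed by 0.43 (adjusted p = 0.0480 in limma), a call lost without all single mice but treated mouse 2. Against C57 the treated mice were higher by 0.94 for *Gucy1a3* (adjusted p = 0.00502) and 0.42 for *Calm2* (0.0452). Leaving out 1 mouse at a time, 1 to 5 genes of the list were called higher in treated against *mdx* mice. The count of 5 was that without treated mouse 2, where 4103 of all 14494 probe sets were called, against 1615 with all mice. *Gucy1a3* was lost without *mdx* mice 3 or 4 or treated mice 1 or 4 (adjusted p up to 0.0584 in limma). Against C57, *Gucy1a3* was kept without each mouse in turn and *Calm2* was lost without 10 of the single mice (up to 0.120). The other synthases, *Nos2* and *Nos3*, were not called in any comparison.

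Some markers of vessel cells were also higher in treated mice. Over all 14494 probe sets tested, 7.26% were called higher in treated against *mdx* muscle. In treated against C57 muscle, 15.6% were called higher and 1299 were called lower. Of 5 endothelial markers, *Pecam1* (0.78, adjusted p = 0.0277 in limma) and *Tek* (0.97, adjusted p = 0.0332) were called higher in treated than in *mdx* mice, while the others were not called and *Vwf* differed by 0.03. Against C57, *Pecam1* (0.84), *Kdr* (0.90) and *Tek* (0.89) were called higher in treated mice. The others were not called, and *Vwf* differed by -0.30. The summed signal of the list ran from 1456 to 1999 over the C57, 1691 to 2079 over the *mdx* and 1870 to 2753 over the treated mice. Of 5 smooth muscle and pericyte markers, *Rgs5* was called higher in treated than in *mdx* mice (1.01, adjusted p = 0.0146 in limma). The others were not, with *Acta2* at -0.15 and *Tagln* at -0.18. Against C57, *Rgs5* was called higher in treated mice (1.01), and *Tagln* and *Cnn1* were called lower (-0.52 and -0.57). The sum of this list was 2290 to 2754, 1941 to 2564 and 2208 to 2746. Their part in the result was not tested.

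The neuromuscular junction, where the product of *Sntb2* is concentrated, was read from a list of 12 genes, all tested. In *mdx* against C57 muscle 3 were called higher and 0 lower, in treated against *mdx* muscle 0 and 1, and in treated against C57 muscle 2 and 0, with median differences of 0.03, -0.15 and 0.00. Of all 14494 probe sets tested, 7.06%, 7.26% and 15.6% were called higher, and 719, 563 and 1299 were called lower. All 3 genes of the list that rose in *mdx* encode subunits of the acetylcholine receptor: *Chrna1* by 1.15 (adjusted p = 0.00200 in limma), *Chrnb1* by 0.77 (adjusted p = 0.00507) and the embryonic subunit *Chrng* (adjusted p = 0.00629). The calls of *Chrna1* and *Chrnb1* were kept without each mouse in turn. The mean intensity of *Chrng* was 18.1 in C57, below the minimum of 30, and 90.8 in *mdx* mice, so the gene was tested only because it was high outside C57; of the 11 genes that reached the minimum in all groups, 2 were called higher in *mdx*.

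In treated mice *Chrna1* fell against *mdx* by 0.62 on the log2 scale (adjusted p = 0.0388 in limma). That call of *Chrna1* was lost without 8 of the 11 single mice, with an adjusted p of up to 0.104. Without treated mouse 2, however, 2 genes of the list were called higher than in *mdx* mice (*Musk*, *Lrp4*) and 4 lower (*Rapsn*, *Chrna1*, *Chrnb1*, *Chrng*). In that fit 4103 of all 14494 probe sets were called in this comparison, against 1615 with all mice. *Chrnb1* (0.53, adjusted p = 0.0232) and *Musk*, the receptor kinase that organizes the junction (0.58, adjusted p = 0.0355), were above C57 in treated mice. That of *Chrnb1* was lost without C57 mice 2 or 3 or treated mouse 3 (adjusted p up to 0.105), that of *Musk* without any C57 mouse or without treated mice 1, 3 or 4 (up to 0.110), and 0 to 3 genes of the list were called higher than C57 with each mouse left out.

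**Figure D4:**
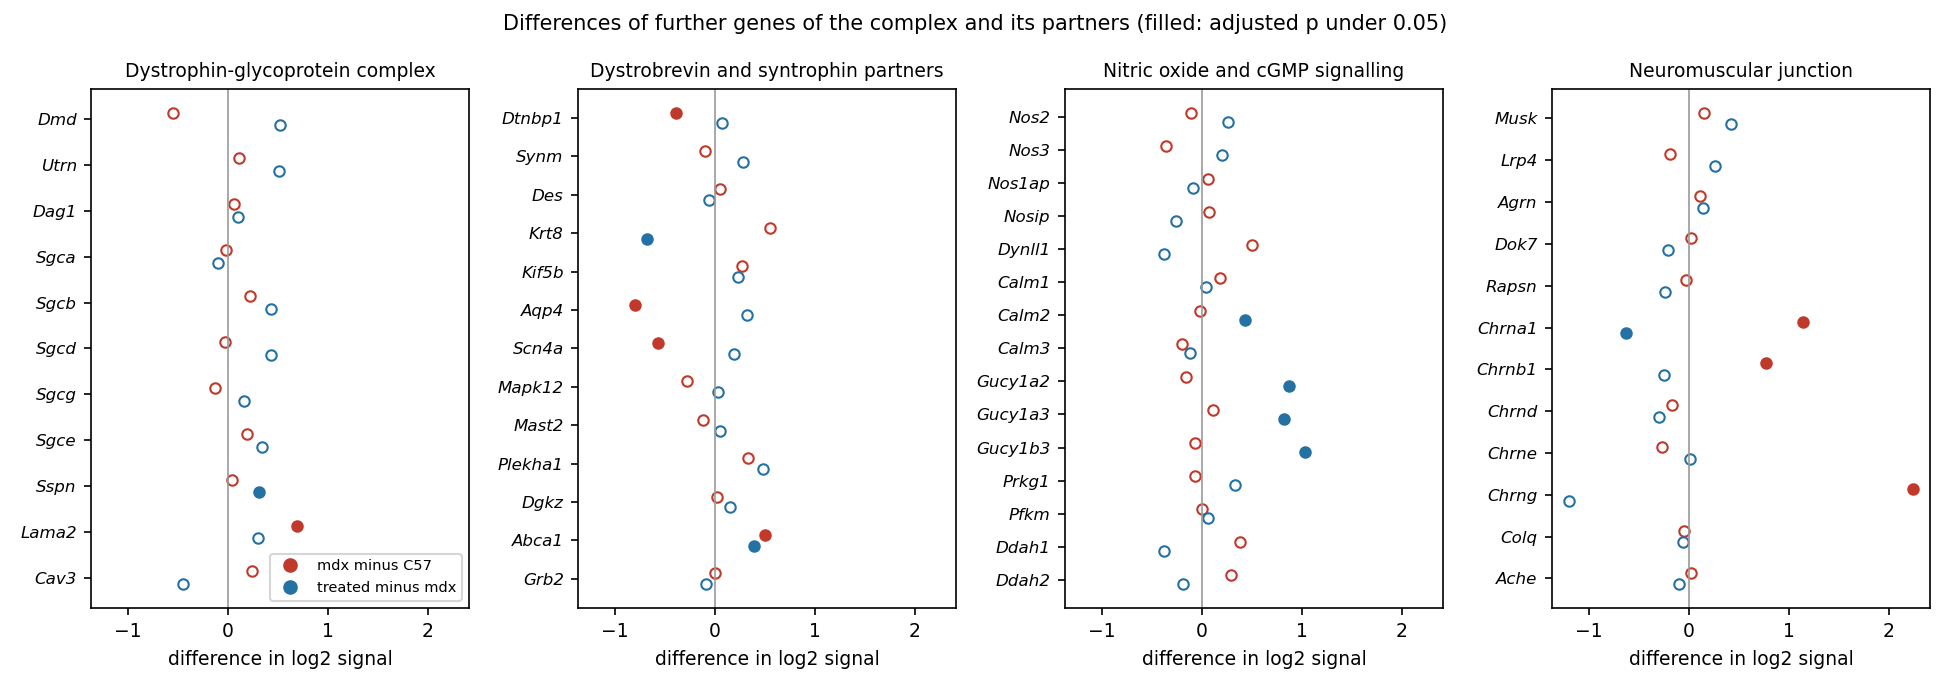
Difference in log2 signal (x axis) of each tested gene of 4 lists, in *mdx* minus C57 (red) and treated minus *mdx* mice (blue); filled points have an adjusted p under 0.05 in limma. *Gucy1a3* is filled in blue at 0.82, beside *Gucy1a2* and *Gucy1b3*, which reached the minimum signal in treated mice alone, and the acetylcholine receptor subunits *Chrna1*, *Chrnb1* and *Chrng* are filled in red.

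Other cell types differed between the groups in the same comparisons. Over all probe sets, 12.0% were called in *mdx* against C57, 11.1% in treated against *mdx* and 24.6% in treated against C57 muscle. Of 5 macrophage markers tested, 4 were called higher in *mdx* muscle, compared with C57, and the summed signal of the list ran from 883 to 1304 over the C57, 2382 to 3781 over the *mdx* and 1955 to 2500 over the treated mice. In treated against *mdx* muscle *Mrc1* was higher and *Cd68* lower. Of 5 fibroblast markers, 2 were called higher in *mdx* and 4 in treated mice against C57, with sums of 3457 to 4726, 5020 to 6283 and 5137 to 7945. Of 4 regenerating fibre markers 3 were called higher in *mdx* against C57 mice and 0 were called in treated against *mdx* mice. The sums of this list were 447 to 620, 675 to 1008 and 466 to 884. The markers called were *Myh3*, *Myh8* and *Myog*. The mean intensity of *Myh3* was 19.3 in C57, below the minimum signal, and 75.6 in *mdx* mice. *Myh3* was therefore tested only because it was high outside C57, and its call is no support for a rise of the list.

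Of 3 Schwann cell markers tested, 2 were lower in *mdx* than in C57 mice, with sums of 697 to 1459, 286 to 490 and 253 to 483. All 3 adipocyte markers tested were lower in treated than in *mdx* mice, with sums of 247 to 409, 165 to 439 and 78.7 to 209. None of the 3 red blood cell markers was called in limma, and their sums were 7695 to 12197, 8072 to 11331 and 7484 to 8721. Of the mature fibre markers, *Myh2*, the myosin of fast oxidative fibres, was called higher in treated than in *mdx* mice (1.45, adjusted p = 0.0158 in limma). *Cd163*, *Prx*, *S100b* and *Lep* did not reach the minimum signal. The part of these cell types in the differences of *Dtna*, *Sntb1* and *Sntb2* was not tested.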

How the data were processed

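The deposited values are linear intensities for 28350 probe sets on 11 arrays, replicates not pooled, which the authors obtained by RMA (background correction, sketch-quantile normalization, median polish) in Affymetrix Expression Console. The minimum signal of 30 given in the study's methods had not been applied; here the 14494 probe sets whose mean reached 30 in 1 group or more were tested. The log2 intensities were fitted in R 4.3.3 with limma 3.58.1 (lmFit, eBayes), using all 11 mice and 3 group means. Tests were two-sided and adjusted by Benjamini-Hochberg over all probe sets tested. For a gene with several probe sets, that of highest mean log2 signal was used. Nothing in the labels says whether mice shared a cage, litter or day. The number of arrays limits the precision.

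The members and gene lists were chosen with earlier results of these data known, so the p-values are not independent support. Named were the members, *Dmd*, the called genes of the 4 lists (at most 4 a list and comparison, by size) and the 3 genes most like each member. *Nos2*, *Nos3*, *Cav3*, *Sgcd*, *Synm*, *Lrp4*, *Rapsn* and single marker genes fall outside this rule and were named after their values were seen. A further gene of the complex is not reported here. Alternatives were the methods' t-test, an unequal-variance test, exact permutation, a fit of only the 2 groups, a trended prior, array weights, no filter or a minimum of 100, median centring, repeated quantile normalization, averaging the probe sets of a gene, a replicate block and each mouse left out; those for the lists were added after the data were seen. Tables and plots were made in Python 3.11.15 using NumPy 2.4.6, pandas 2.3.3 and matplotlib 3.10.9.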

Additional observations from a re-analysis of the deposited data

Results flagged for a closer look

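In the treated group, the *Sntb1* signal of mouse 1, 7.05, lay far from the other three at 6.57 to 6.62: the gap to its nearest neighbour was 0.896 of the group's range. The 5 genes gave 10 groups of 4 mice to check in this way, and chance marks about 1 group in 20.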

How the results depend on the processing

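Of 342 differences of the 5 genes recomputed under the alternatives, 322 kept their direction and their side of the threshold, 13 lost a call, 6 gained one and 1 changed sign. Alternatives that changed only the test, the groups fitted, the prior or the filter leave the difference as it is, so its direction could not change there. The gains include *Sntb1* by exact permutation, where an unadjusted p was held to the threshold used for adjusted ones. The number of the 5 genes called in *mdx* against C57 mice was 1, and it was 0 by the unequal-variance test, 2 by the exact permutation test without adjustment, whose smallest possible p is 0.0286, and 0 to 1 with each mouse left out. In treated against *mdx* mice it was 1, and it was 0 by the methods' t-test after adjustment and by the unequal-variance test, 2 by exact permutation, 3 with array weights (*Dtna*, *Sntb1*, *Sntb2*), and 0 to 3 with each mouse left out. The 3 of that range were called without treated mouse 2 (*Dtna*, *Sntb2*, *Nos1*), where 4103 of all 14494 probe sets were called. The share of all probe sets was not counted with array weights or by exact permutation. In treated against C57 mice the number of the 5 genes called was 3, and it was 1 by the methods' t-test and by the unequal-variance test (*Sntb2* in both). It was 2 by exact permutation (*Sntb1* and *Sntb2*) and 2 to 3 with each mouse left out. In the permutation test *Dtna* had an unadjusted p of 0.0571. By the t-test after adjustment, 791, 88 and 1274 of all probe sets passed in the 3 comparisons. The cause of these changes was not tested. *Dtnb* in *mdx* minus C57 ran from -0.0967 to 0.005 with each mouse left out, changing sign without C57 mouse 1, and *Dmd* in treated minus C57 from -0.20 to 0.0767. The mouse numbers are not a pairing in the labels, and the deviations of same-numbered mice correlated at -0.30 to 0.15 over 10 pairs. With the number as a replicate block, 0 of the 5 genes were called in treated against *mdx* mice (*Sntb2* at an adjusted p of 0.0518 in limma), and *Dmd* in treated minus C57 was 0.11. Signals near the minimum of 30 limit what can be said of *Gucy1a2*, *Gucy1b3*, *Chrng* and *Myh3*.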
